A study of Homo sapiens with 6 samples.

Results

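ZNF442 and ZNF799 belong to a run of zinc finger genes in band 19p13.2 of human chromosome 19. The 10 genes described here, ZNF442, ZNF799, ZNF443, ZNF44, ZNF563, ZNF709, ZNF564, ZNF490, ZNF791 and ZNF136, lie in succession among its zinc finger genes, at 1 end of that run in the RefSeq gene order. They were chosen on the array values of ZNF442 and ZNF799, which were higher together after SALL4 knockdown. Those 2 genes are therefore described without a test, and the question asked of the other 8 is whether they differ as well. Of the 10, 9 had a probe set of their own, of 18404 such genes on the array. ZNF490 was measured only by a probe set that is also listed for ZNF564. After a filter on dim genes 5 of the 10 remained in a fit of 13711 genes.

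Genes of this kind encode proteins with a KRAB domain followed by a row of C2H2 zinc fingers. The fingers bind DNA, and the KRAB domain is known to recruit the corepressor TRIM28, which brings the histone methyltransferase SETDB1 and heterochromatin protein 1 and so silences the bound site, often a transposable element. Such genes arose by repeated local duplication, and neighbours in a cluster are paralogs with similar sequence. Probes for close paralogs, such as ZNF799 and ZNF443, can share signal, and how far they did so on these arrays was not tested.

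The study compared cultures of SNU-398, an established human hepatocellular carcinoma line grown in RPMI medium with fetal bovine serum. In 3 cultures an shRNA against SALL4 was used and in 3 a scrambled shRNA, and each culture was measured on 1 Affymetrix array as a biological replicate. SALL4 is itself a C2H2 zinc finger protein, known for keeping stem cells undifferentiated and for its expression in the liver before birth. All 6 arrays come from a single cell line. The labels name no hairpin sequence and no number of hairpins, so what a hairpin does apart from lowering SALL4 cannot be told apart from the knockdown.

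The promoters of the members show how closely the cluster's genes are related. RefSeq windows of 300 bases (250 before and 50 after the annotated start, build GRCh38.p14) were available for all 10. Below are the windows of ZNF442 and ZNF799, the pair that defines the set, and of ZNF44 and ZNF443. The window of ZNF44 shares the most identical bases with that of ZNF799, and ZNF443 is a close paralog of ZNF799. They lie at chr19:12365634-12365933, chr19:12401222-12401521, chr19:12294834-12295133 and chr19:12440972-12441271, all on the minus strand. Capitals mark CCAAT, the core letters of the box bound by NF-Y, and GGGCGG, the core of the GC box bound by SP factors, on either strand (ATTGG and CCGCCC when reversed).
ZNF442: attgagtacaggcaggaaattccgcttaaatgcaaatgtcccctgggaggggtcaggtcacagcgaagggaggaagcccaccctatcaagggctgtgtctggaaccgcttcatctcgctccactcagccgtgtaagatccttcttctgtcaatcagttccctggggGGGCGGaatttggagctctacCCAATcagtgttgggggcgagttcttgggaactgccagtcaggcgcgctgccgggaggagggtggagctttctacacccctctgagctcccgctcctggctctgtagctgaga
ZNF799: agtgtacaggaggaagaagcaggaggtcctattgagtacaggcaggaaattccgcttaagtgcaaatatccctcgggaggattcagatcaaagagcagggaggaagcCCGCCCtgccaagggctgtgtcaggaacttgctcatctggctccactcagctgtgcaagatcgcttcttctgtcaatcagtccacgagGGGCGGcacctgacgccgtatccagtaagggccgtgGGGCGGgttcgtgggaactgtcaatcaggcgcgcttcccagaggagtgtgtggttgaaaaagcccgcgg
ZNF44: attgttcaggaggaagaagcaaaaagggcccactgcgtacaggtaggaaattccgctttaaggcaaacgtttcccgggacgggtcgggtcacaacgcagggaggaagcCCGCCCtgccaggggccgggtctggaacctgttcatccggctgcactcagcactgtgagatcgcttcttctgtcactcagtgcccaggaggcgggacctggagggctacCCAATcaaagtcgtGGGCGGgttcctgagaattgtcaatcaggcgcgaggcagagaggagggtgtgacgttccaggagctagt
ZNF443: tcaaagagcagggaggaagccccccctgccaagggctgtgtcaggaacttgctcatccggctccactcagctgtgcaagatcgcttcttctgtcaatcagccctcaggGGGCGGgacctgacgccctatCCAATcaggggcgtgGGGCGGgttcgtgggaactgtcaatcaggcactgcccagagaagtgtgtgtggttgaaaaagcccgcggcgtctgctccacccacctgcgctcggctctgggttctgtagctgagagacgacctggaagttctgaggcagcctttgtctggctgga

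Aligned end to end with free end gaps, the windows of ZNF442 and ZNF799 shared 216 identical bases, 72.0% of the window. That was the third highest of the 45 pairs of members, after ZNF443 with ZNF563 (79.3%) and ZNF799 with ZNF44 (78.7%). ZNF709 with ZNF791 tied with it at 216 identical bases. ZNF442 and ZNF44 shared 70.7%. For comparison, the windows of 21 flanking genes without zinc fingers matched that of ZNF442 at 9.0% to 60.7% of bases and that of ZNF799 at 7.7% to 59.7%. As a share of the 300-base window, ZNF136, ZNF709, ZNF791 and ZNF490 lay within that range for both genes of the pair. That share can be lower where windows start at offset positions. Of their bases that aligned with ZNF799, 74.4% (ZNF791) to 75.1% (ZNF709) were identical. With ZNF442 it was 71.5% (ZNF136) to 72.8% (ZNF791) of the aligned bases. The flanking genes were not compared by aligned bases, so whether these promoters are closer to the pair than unrelated ones was not tested. Over the 211 bases that aligned between ZNF799 and ZNF443, 93.4% were identical, against 81.7% of the 289 that aligned between ZNF799 and ZNF44.

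**Figure D1:**
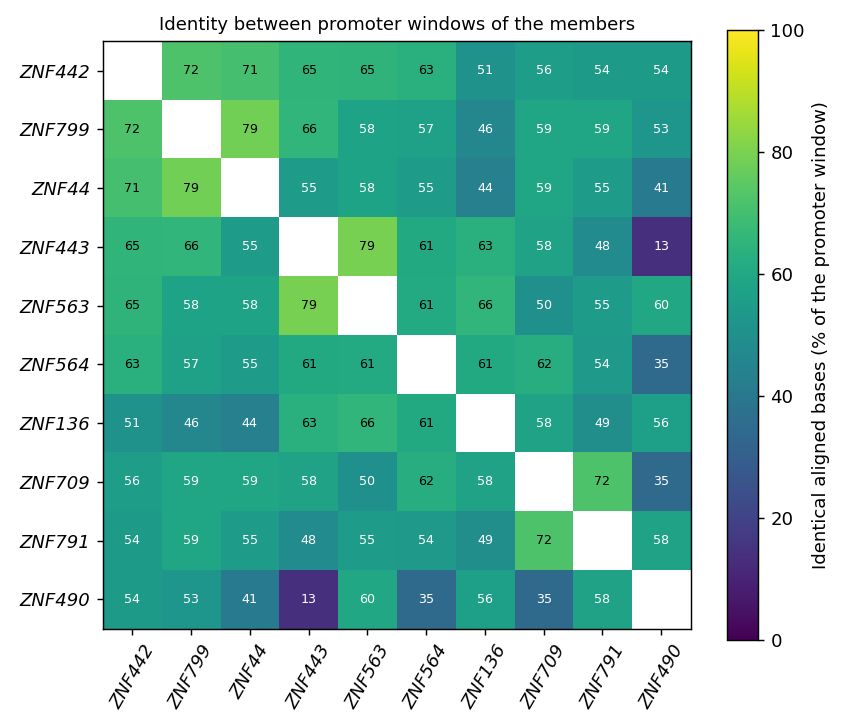
Identical aligned bases between the promoter windows of the 10 members, as a percentage of the 300-base window, with genes on both axes. ZNF442, ZNF799 and ZNF44 form a block at 70.7% to 78.7%, and ZNF443 with ZNF563 reach 79.3%.

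The longest exact run common to the windows of ZNF442 and ZNF799 was 29 bases, at the 5′ end of the ZNF442 window and from base 31 of the ZNF799 window. It is shown as the longest stretch that the pair has in common. Among the first listed windows of 27305 genes it occurred in 2, those of ZNF442 and ZNF799.
Shared run: ATTGAGTACAGGCAGGAAATTCCGCTTAA
The windows of ZNF443 and ZNF563 begin further downstream, at positions that align with base 58 and base 54 of the ZNF442 window, so they do not reach this stretch and nothing can be said of it there. The ZNF44 window covers the stretch and differs from it.

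A CCAAT core on either strand was present in 9 of the 10 members' windows, against 35.7% of all windows, and in 13 of 13 windows of the other zinc finger genes of the cluster. A GGGCGG core was also present in 9 of 10, against 44.6% of all windows. CCAAT and its reverse form did not overlap a GC box in any member's window. ZNF442 had 1 of each. In its first listed window ZNF799 had 3 GGGCGG cores and no CCAAT, and in a second, more downstream window 1 CCAAT and no GGGCGG. An AT-rich motif of the kind SALL4 is known to favour, ATATT, was counted on either strand (AATAT when reversed). It occurred in 3 of 10 members' windows (ZNF799, ZNF709 and ZNF564) and in 23.6% of all windows. These matches describe letters in the windows and are not binding sites.

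Quality and identity of the arrays bear on the values that follow. SALL4 itself was at an intensity of 120.7, 118.7 and 117.3 with the SALL4 shRNA, against 283.5, 264.2 and 335.4 with the scrambled shRNA, so the targeted gene was lower in every knockdown culture (log2 difference -1.30 ± 0.18, SE; limma adjusted p = 0.0112). Its adjusted p was 0.0946 with no filter on dim genes, 0.0535 among all probe sets and 0.0724 without the 2 arrays named next. Array medians lay between 47.85 and 51.69, and 15.5% to 16.9% of the values of each array sat at the floor of 10. On the second principal component, 19.8% of the variance, SALL4 shRNA replicate 2 (-23.4) and scrambled replicate 3 (-19.3) stood apart from the other 4 arrays (1.77 to 16.9), and member values are therefore also given without these 2 arrays. Of 5 liver tumour markers 4 were above the filter and limma called 0 of them (2 at an unadjusted p under 0.05, AMBP and KRT8), with GPC3 at 144 ± 21.8 and 155 ± 18.1 with the SALL4 and the scrambled shRNA (SD, n = 3 each), while AFP was near the floor in both groups (10.6 to 17.8 and 14.2 to 15.4). Of the markers of other cells, limma called 1 of 4, where 1.6% of all genes were called. The fibroblast proteoglycan gene DCN was at 83.4 ± 21.1 with the SALL4 shRNA, against 195 ± 17.2 with the scrambled shRNA. CD68 (macrophages), ROBO4 (endothelium) and KRT7 (bile duct cells) did not pass. The summed intensity of these 4 markers was 318.8 to 357.8 with the SALL4 shRNA, against 387.8 to 451.6 with the scrambled shRNA, and without DCN it was 213.2 to 294.1 with the SALL4 shRNA, against 200.8 to 237 with the scrambled shRNA. None of the 4 was at the floor, and their part in the results below was not tested.

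ZNF442 had intensities of 92.5, 84.0 and 80.2 with the SALL4 shRNA, against 35.4, 33.8 and 43.5 with the scrambled shRNA. All 3 knockdown arrays were above all 3 control arrays, and the gap between the groups was wider than the range within either. The log2 difference was 1.19 ± 0.19 (SE), which is 2.29-fold. It was 1.31 without SALL4 shRNA replicate 2 and scrambled replicate 3. The gene is dim in control cells, with a mean log2 intensity of 5.22 that lies just above the filter at 5, and dim probe sets can understate a fold change. The arrays measure RNA of whole cultures, so more RNA per cell and more cells that express the gene cannot be told apart.

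ZNF799 had intensities of 400.4, 456.1 and 365.5 with the SALL4 shRNA, against 197.1, 188.9 and 117.1 with the scrambled shRNA. Again every knockdown array was above every control array. The log2 difference was 1.31 ± 0.23 (SE), or 2.48-fold. The lowest control value and the highest knockdown value came from the 2 arrays that stood apart, and without them the difference was 0.99, or 1.07 without scrambled replicate 3 alone. Within the groups the order of the arrays was alike only in part. With the group means removed, the correlation of the 2 genes over the 6 arrays was -0.76. Both genes were lowest in replicate 3 of the knockdown arrays, where ZNF442 was highest in replicate 1 and ZNF799 in replicate 2. Both were higher in scrambled replicate 1 than in scrambled replicate 2, while scrambled replicate 3 had the highest ZNF442 and the lowest ZNF799 of the control arrays. These values chose the genes and are given as a description. Groups that do not overlap, with the knockdown higher, were seen in 11.4% of the 13711 genes.

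**Figure D2:**
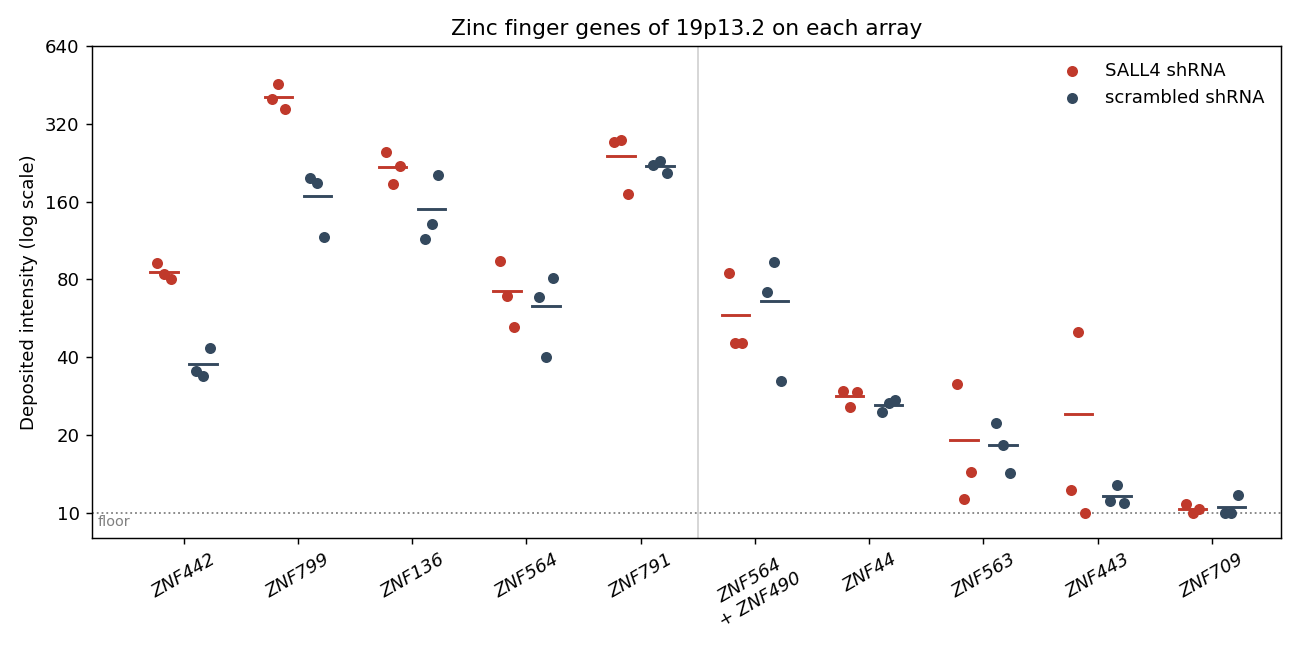
Deposited intensity on a log scale for each array (points) and group mean (bars), with SALL4 shRNA in red left of scrambled shRNA in blue. Genes left of the vertical line were in the filtered fit; the probe set of ZNF564 and ZNF490 and the 4 dim genes are to its right. The groups separate for ZNF442 and ZNF799 and overlap for all others shown.

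Among the other 8 members no gene passed. In the filtered limma fit 0 of the 3 that could be tested there (ZNF136, ZNF564 and ZNF791) had an adjusted p under 0.05, where 0.547% of all genes rose 1.06% fell and 1.6% changed in either direction. At an unadjusted p under 0.05 there was 1 of the 3, ZNF136, where 16.9% of all genes were under it. In the unfiltered fit, which called 0 of 18404 genes, 0 of the 7 with a probe set of their own passed (background 0%), and there 15.6% of genes had an unadjusted p under 0.05.

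ZNF136, at the other end of the set and a KRAB zinc finger gene, had intensities of 248.9, 187.1 and 219.3 with the SALL4 shRNA, against 114.4, 131.5 and 202.7 with the scrambled shRNA. The groups overlapped because scrambled replicate 3 was above SALL4 shRNA replicate 2, the 2 arrays that stood apart. The log2 difference was 0.58 ± 0.23 (SE), with a 95% interval of 0.07 to 1.09 not adjusted for the number of genes and a limma adjusted p of 0.236. Without those 2 arrays it was 0.93 with an adjusted p of 0.117, and without scrambled replicate 3 alone 0.82 with an adjusted p of 0.118. Over the 18 alternatives its adjusted p ranged from 0.117 to 0.507.

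ZNF564 had 94.1, 69.2 and 52.5 with the SALL4 shRNA, against 68.6, 40.2 and 81.4 with the scrambled shRNA. The arrays of both groups covered nearly the same range. Its log2 difference was 0.20, with an interval of -0.42 to 0.82 and a limma adjusted p of 0.773, and its sign turned without SALL4 shRNA replicate 1 (-0.0123) or scrambled replicate 2 (-0.0962). The probe set listed for both ZNF564 and ZNF490 had 84.6, 45.4 and 45.3 with the SALL4 shRNA, against 71.6, 93.4 and 32.3 with the scrambled shRNA. In the fit of all probe sets its difference was -0.10, with an interval of -1.06 to 0.85 and an adjusted p of 0.937 (there 0.0492% of 20316 probe sets were called). The interval is too wide to place ZNF490 on either side.

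ZNF791, which starts head to head with ZNF490 so that their promoter windows overlap by 206 bases, had 271.3, 277.9 and 171.8 with the SALL4 shRNA, against 221.1, 229.0 and 206.4 with the scrambled shRNA. Of the knockdown arrays 2 were above all controls and replicate 3 was below them all. The log2 difference was 0.10, with an interval of -0.37 to 0.58 and a limma adjusted p of 0.860. The difference between these members and the pair was not tested, since the pair was chosen for its values.

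The remaining 4 members were dim, with mean log2 intensities under 5 in both groups, and were tested only in the unfiltered fit. ZNF44 is the member whose window shared the most identical bases with that of ZNF799. It had 29.6, 25.8 and 29.3 with the SALL4 shRNA, against 24.5, 26.7 and 27.3 with the scrambled shRNA. Its arrays were tight and the groups overlapped, with a log2 difference of 0.11, an interval of -0.11 to 0.33 and a limma adjusted p of 0.626. At this brightness a change can be understated.

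ZNF443, the close paralog of ZNF799, had 12.3, 50 and 10 with the SALL4 shRNA, against 11.1, 12.8 and 10.9 with the scrambled shRNA. It was at or near the floor on 5 of 6 arrays and well above it on SALL4 shRNA replicate 2, the array on which ZNF799 was also highest. The difference of 0.66 (interval -1.0 to 2.33, adjusted p = 0.708 in the unfiltered limma fit) was -0.0622 without that array. ZNF563 had 31.6, 11.3 and 14.4 with the SALL4 shRNA, against 22.3, 18.4 and 14.3 with the scrambled shRNA, a spread within the knockdown group wider than any shift (-0.0649; interval -1.17 to 1.04). Without SALL4 shRNA replicate 1 the ZNF563 difference was -0.50. ZNF709 lay between 10.0 and 10.8 with the SALL4 shRNA, against between 10.0 and 11.7 with the scrambled shRNA, at the floor on 3 of 6 arrays, so no change can be read from it.

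Beyond the members, the run of zinc finger genes extends toward ECSIT, and none of the rest of it passed either. Of 16 further zinc finger genes and pseudogenes of the cluster, 13 had a probe set of their own and 8 were in the filtered fit. Of these 8, limma called 0, where 1.6% of all genes were called. At an unadjusted p under 0.05 there was 1, where 16.9% of all genes were under it. There were 6 positive and 2 negative differences, against 52.0% positive among all genes. The median was 0.22, against a median of 0.0154 over all genes. The 3 tested members beside the pair had a median of 0.20. ZNF441 had the largest difference of the 8, with 60.5, 42.0 and 80.4 with the SALL4 shRNA, against 25.9, 26.3 and 42.3 with the scrambled shRNA. Scrambled replicate 3 was just above SALL4 shRNA replicate 2, and the other 4 arrays were well separated. Its log2 difference was 0.94 ± 0.27 (SE) with an adjusted p of 0.0974, and without those 2 arrays 1.42 with an adjusted p of 0.0669. ZNF441 was under the filter with the scrambled shRNA (mean intensity 31.5) and entered the fit only through the SALL4 shRNA arrays (60.9). Its difference, its adjusted p and its part in the median carry that selection. With a filter on the mean over all 6 arrays, which does not use the groups, its limma adjusted p was 0.0963. Over the 17 alternatives that tested ZNF441 the difference ranged from 0.68 to 1.42 and the adjusted p from 0.0669 to 0.268. ZNF844 was at 0.52 ± 0.24 with an adjusted p of 0.30. The other 6 lay between -0.0522 and 0.38. The groups did not overlap in 1 of the 8, ZNF69, at 47.5, 81.7 and 44.1 with the SALL4 shRNA, against 43.8, 41.6 and 42.9 with the scrambled shRNA, where they were separate and higher in 11.4% of all genes. Its difference of 0.38 rested mostly on SALL4 shRNA replicate 2 and had an adjusted p of 0.449.

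**Figure D3:**
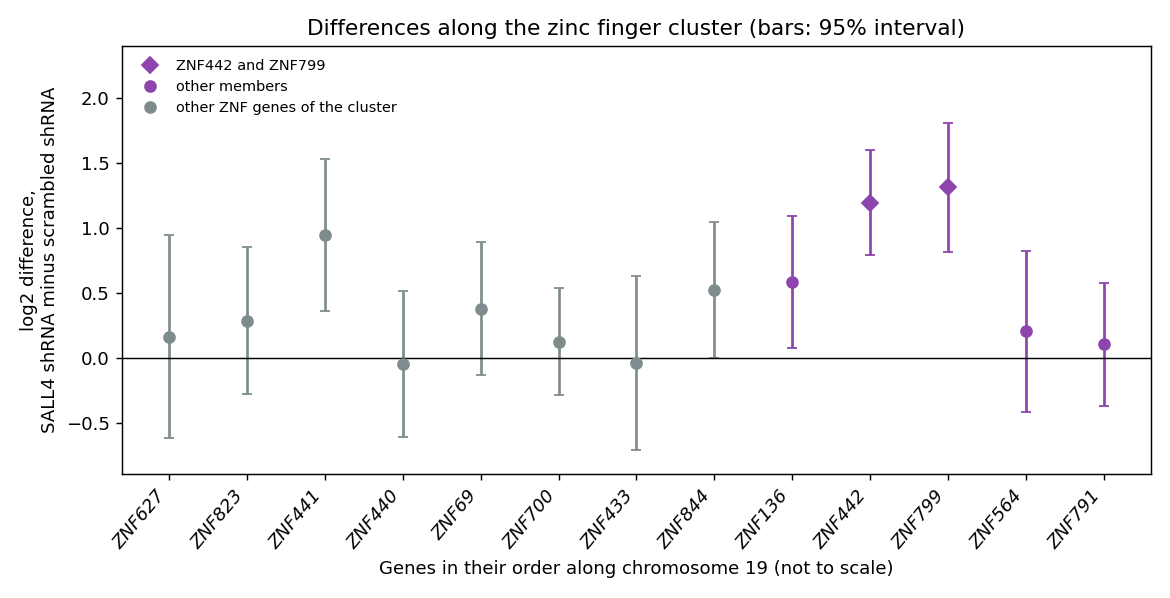
Log2 difference, SALL4 shRNA minus scrambled shRNA, with its 95% interval (limma, not adjusted for multiple genes) for the 13 zinc finger genes of the cluster in the filtered fit, in their order along the chromosome. ZNF442 and ZNF799 (diamonds) are neighbours at 1.19 and 1.31, and ZNF441, near the far end, follows at 0.94. The pair was chosen for its values, so the intervals of ZNF442 and ZNF799 are a description and no test. ZNF441 met the filter only with the SALL4 shRNA.

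ZNF442 and ZNF799 are neighbours among the zinc finger genes in this order, and those next to the pair did not reach the filter. ZNF563 adjoins ZNF442 and ZNF443 adjoins ZNF799, and both were dim. The next genes in the filtered fit were ZNF136 on one side and ZNF564 on the other. The flanking genes without zinc fingers, which lie on both sides of the run, also did not pass. Of 24 listed, 20 were in the filtered fit and limma called 0, where 1.6% of all genes were called, with 3 at an unadjusted p under 0.05, where 16.9% of all genes were under it (12 positive and 8 negative differences, median 0.11). The 2 with the lowest p were ECSIT, an adaptor of Toll signalling and complex I assembly, at 0.67 ± 0.27 (SE; adjusted p = 0.228), and CALR, the calcium-binding chaperone calreticulin, at 0.48 ± 0.20 (adjusted p = 0.244). Without the 2 arrays that stood apart ECSIT was at 0.21.

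Zinc finger genes elsewhere on the chromosome gave a background for the family. Of 170 other genes with ZNF symbols on chromosome 19, limma called 1 higher and 1 lower, where 0.547% of all genes were higher and 1.06% lower. The median difference was 0.12. The knockdown arrays were all above the controls in 15.9% of these 170 genes (11.4% of all genes) and all below in 4.12% (11% of all genes). Of 378 other ZNF genes on all chromosomes, 3 rose and 2 fell, where 0.547% of all genes rose and 1.06% fell. The median of the 378 was 0.0477. The 5 called genes were named after their values were seen. ZNF280A (1.23 ± 0.25, SE), ZNF542P on chromosome 19 (1.11 ± 0.20) and ZNF354B (0.94 ± 0.21) rose, with limma adjusted p from 0.0246 to 0.046. ZNF280A was under the filter with the scrambled shRNA (mean intensity 28.5) and entered the fit only through the SALL4 shRNA arrays (67.7). Its call carries that selection. ZNF43, on chromosome 19 (-1.16 ± 0.24), and ZNF239 (-1.06 ± 0.21) fell, with adjusted p of 0.0361 and 0.0299.

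**Figure D4:**
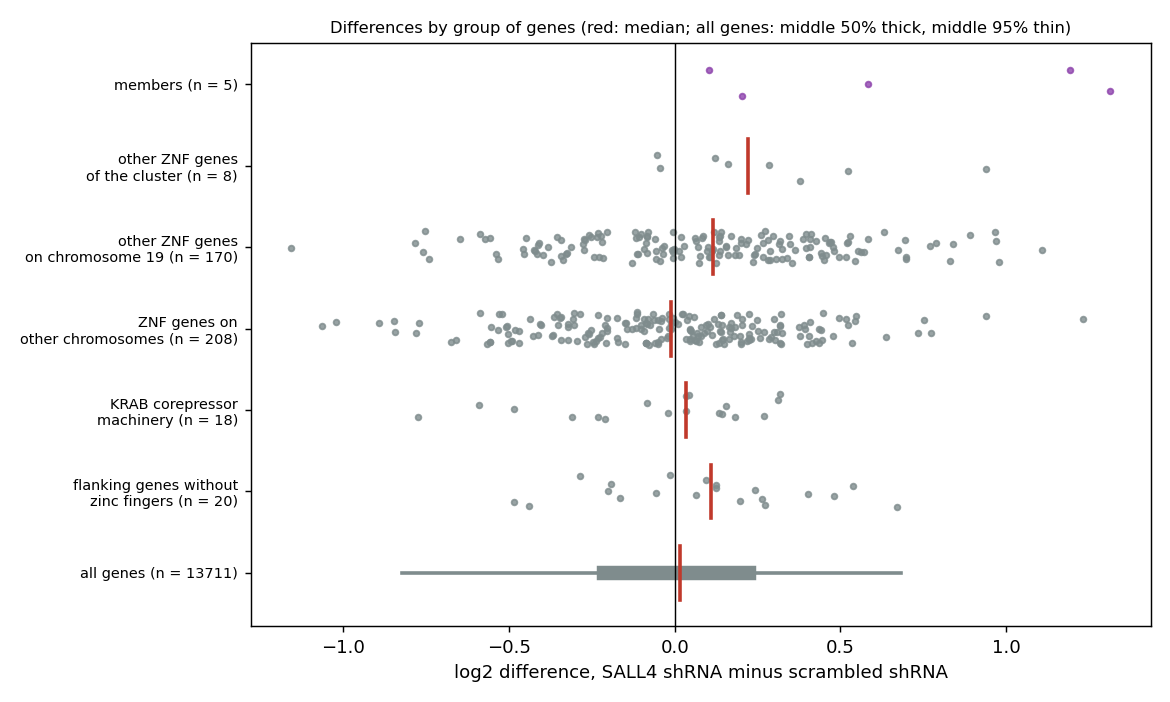
Log2 difference, SALL4 shRNA minus scrambled shRNA, for each gene of the filtered fit (points), by group of genes. Red lines are medians, omitted for the members because the pair was chosen for its values. All genes are shown by their middle 50% and 95%. The median was 0.22 for the other zinc finger genes of the cluster and 0.0154 for all genes.

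The corepressor machinery through which KRAB zinc finger proteins act was also examined. Of 19 listed genes, 18 were in the filtered fit and limma called 0, against 1.6% of all genes. At an unadjusted p under 0.05 there were 2, both lower, against 16.9% of all genes. The list had 10 positive and 8 negative differences and a median of 0.0333. CBX5, which encodes heterochromatin protein 1 alpha, had 1067.5, 777.1 and 1255.6 with the SALL4 shRNA, against 1827.9, 1590.6 and 1792.1 with the scrambled shRNA. All knockdown arrays were below all controls, as in 11% of all genes, and the log2 difference was -0.77 ± 0.21 (SE) with an adjusted p of 0.0823. With limma's trend and robust settings the adjusted p was 0.0214, and with a pseudocount of 16 it was 0.0465. Those settings called 500 and 445 genes in all, against 220. Over the 18 alternatives the adjusted p of CBX5 ranged from 0.0214 to 0.296, and in 16 of them its call was unchanged. The other heterochromatin protein 1 genes of the list did not share this direction clearly. CBX1 was at 0.32 ± 0.20 (adjusted p = 0.452) and CBX3 at -0.0196 ± 0.21 (adjusted p = 0.978). The groups were separate and higher in 2 of the 18 (CBX1 and CHD3), as in 11.4% of all genes. They were separate and lower in 3 (CBX5, MPHOSPH8 and PPHLN1), as in 11% of all genes. MPHOSPH8, a subunit of the silencing complex HUSH that reads methylated histone H3, was at -0.59 ± 0.21 with an adjusted p of 0.175. TRIM28, the corepressor that binds the KRAB domain, was at 203 ± 76.1 with the SALL4 shRNA, against 272 ± 48.9 with the scrambled shRNA (SD, n = 3 each), a difference of -0.49 ± 0.28 with an adjusted p of 0.416. The groups overlapped.

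Genes elsewhere whose 6 array values were most like the mean profile of ZNF442 and ZNF799 were TMED5, a cargo receptor gene of the early secretory pathway, LGALSL, a galectin-like gene, NPC2, a lysosomal cholesterol carrier, GTF2B, a general transcription factor, and YOD1, a deubiquitinase. Likeness was measured by Pearson's r of the centred log2 values over the 6 arrays among 13397 ranked genes, and r lay between 0.992 and 0.995. With 6 arrays in 2 groups this measure mostly reflects the shift between the groups, and the log2 differences of the 5 genes lay between 0.65 (TMED5) and 1.40 (NPC2). In the same order ZNF136 was at rank 2169 (r = 0.65), ZNF791 at rank 4677 (r = 0.32) and ZNF564 at rank 5221 (r = 0.25). The profile is made of the values that chose the set, so these ranks restate the shifts given above and do not set the members apart.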

How the data were processed

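Gene expression was measured on 6 Affymetrix arrays, 3 with a SALL4 shRNA and 3 with a scrambled shRNA. The deposited intensity values are on a linear scale with a floor of 10. RMA is named in the submitters' processing notes. No source used here gives its version or says how the linear scale and the floor arose. Log2 was taken here. Gene symbols came from GEO's platform annotation (19158 with 1 symbol, 1388 with several, 11773 not listed), with symbols updated by Entrez identifier (19128 matched). The probe set with the highest mean was used for each of 18404 genes, and 13711 genes whose mean log2 intensity reached 5 in at least 1 group entered the filtered fit. This filter uses the groups, and ZNF442, ZNF799, ZNF136, ZNF564 and ZNF791 met it in both. ZNF441 and ZNF280A met it only with the SALL4 shRNA.

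The difference of SALL4 shRNA minus scrambled was estimated by limma 3.58.1 (R 4.3.3), using lmFit and eBayes two-sided, with Benjamini-Hochberg adjustment over all genes and a threshold of 0.05. Rose, fell and passed refer to this fit. Intervals are 95% and unadjusted. Errors after intensities are SDs of 3 arrays, and the number of arrays limits the precision. The script was tested on simulated arrays. The members and gene lists were chosen with earlier results of these data known. Genes named are SALL4, the members, genes of each list that passed or the 2 with the lowest p, and the 5 most like the pair. Clone names, microRNAs and small nucleolar RNAs were left out of these 5. TRIM28, CBX1, CBX3, CHD3, PPHLN1, ZNF69, AFP and GPC3 were added after the data were seen, as were ZNF788P and the other dim genes of the cluster.

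Promoter windows are from RefSeq (GRCh38.p14), aligned pairwise with Biopython 1.88 (match 1, mismatch -1, gap opening -2, extension -0.5, end gaps free); the first listed window was used where a gene has several. No source used here gives the build behind the array annotation, and RefSeq's gene table served only for names and gene order. Alternatives to the filter, limma settings, probe sets, normalization, pseudocount and arrays were tried. Replicate numbers are shared between the groups but same-numbered arrays did not deviate together (correlations of deviations of 0.00289, -0.083 and -0.0388), so they were not treated as pairs.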

Additional observations from a re-analysis of the deposited data

How the results depend on the processing

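Under the 18 alternatives limma called 0 of the members tested beside ZNF442 and ZNF799, which were 3 of the 8 in 16 alternatives and 7 with no filter or without genes that sat at the floor throughout, and 0 of the other zinc finger genes of the cluster that were tested. The differences of ZNF442 ranged from 0.93 (pseudocount of 16) to 1.31, and those of ZNF799 from 0.99 (without scrambled replicate 3 and SALL4 shRNA replicate 2) to 1.45. The sign turned for ZNF564 without SALL4 shRNA replicate 1 (-0.0123) or scrambled replicate 2 (-0.0962). It turned for ZNF791 without SALL4 shRNA replicate 1 (-0.000682) or 2 (-0.018) and without scrambled replicate 3 and SALL4 shRNA replicate 2 together (-0.0594). With 1 array left out, ZNF564 ranged from -0.0962 to 0.412 and ZNF791 from -0.018 to 0.329.

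The background count moved widely. It is not set against the differences of ZNF442 and ZNF799, which cannot move where only the filter or the limma settings change. Against 220 genes called, 75 of them higher, limma called 0 (0 higher) with no filter, where 2864 genes had an unadjusted p under 0.05, 40 (13) without genes that sat at the floor throughout, 363 (129) with a filter at 6, 500 (205) with trend and robust settings, 10 (2) among all probe sets and 445 (170) with a pseudocount of 16. Leaving out 1 array gave 39 to 103 (9 to 32 higher), and leaving out scrambled replicate 3 and SALL4 shRNA replicate 2 gave 15 (3). With the replicate number as a block it was 41 (12); same-numbered arrays showed no pairing, and with it 0 of the 3 members tested were called. Fewer arrays leave fewer degrees of freedom. The prior degrees of freedom, by which limma pools variances over genes, were 8.01 in the filtered fit and 1.09 with no filter. Without genes that sat at the floor throughout they were 4.97. The part of these and of other causes in the counts was not tested. SALL4 lost its call with no filter (adjusted p = 0.0946), among all probe sets (0.0535) and without those 2 arrays (0.0724). Dim probe sets (ZNF44, ZNF563, ZNF443, ZNF709) limit what can be said of 4 members.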

Other observations

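Besides the probe set of ZNF564 and ZNF490, 2 probe sets of the cluster were listed for more than 1 gene and entered no count above. The probe set listed for ZNF20 and the readthrough gene ZNF625-ZNF20 was at 27.2, 38.3 and 33 with the SALL4 shRNA, against 35.2, 59.8 and 49.9 with the scrambled shRNA, a log2 difference of -0.54 (95% interval -1.10 to 0.0197). In limma's fit of all probe sets its adjusted p was 0.354. Its direction was opposite to that of ZNF442 and ZNF799, and the groups overlapped. The probe set listed for ZNF625 and ZNF625-ZNF20 was dim, at 24.2, 24.0 and 20.6 with the SALL4 shRNA, against 11.4, 22.2 and 20.6 with the scrambled shRNA.

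The pseudogene ZNF788P, also dim and outside the filtered fit, was at 21.4, 16 and 20.4 with the SALL4 shRNA, against 11.6, 11.8 and 17.9 with the scrambled shRNA, with overlapping groups. Its log2 difference was 0.51, with an adjusted p of 0.366 in the unfiltered limma fit. The other dim genes of the cluster outside the members were ZNF491 at 0.10, ZNF833P at -0.23, ZNF439 at -0.27 and ZNF763 at -0.33. Their groups overlapped, and their adjusted p lay between 0.582 and 0.944 in that fit.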
